A study of Mus musculus with 4 samples.

Results

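Axon guidance ligands and receptors were examined in ribosome-bound and total RNA of adult mouse cerebral cortex. Gene symbols of the semaphorin, plexin, neuropilin, ephrin, Eph, Slit, Robo, netrin and netrin receptor families were taken where a name held at least 10 counts in at least 2 of the 4 libraries. This left 67 of 72 matching names, of 32531 gene names in all. All 67 are annotated as protein-coding, and all 67 were among the 16600 genes tested. They comprise 34 ligands and 33 receptors.

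All libraries came from adult mice of the line Cbln1-EGFP-Rpl10a-NIDA030, which carry the ribosomal protein Rpl10a tagged with EGFP in a line named for Cbln1, the gene of a secreted synaptic organiser. Which cells of the cortex make the tagged protein is not stated in the labels. The 2 IP libraries, numbered 2 and 4, hold RNA bound to the tagged ribosomes after capture with anti-EGFP antibodies (translating ribosome affinity purification). The 2 input libraries, also numbered 2 and 4, hold total RNA of cortex from the same line, so both groups carry the transgene. Sex, and whether libraries of a group came from separate animals, are not given in the labels. The p-values therefore set each difference against the spread of these libraries only, some of which may be technical. That spread is estimated largely across genes (2 residual and 16.8 prior degrees of freedom). Lane 1 held both IP libraries and lane 2 both input libraries, so that effects of lane and of group cannot be told apart.

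Axon guidance molecules steer growing axons and keep acting in the adult brain, where they are known for roles in synapse structure and plasticity. Semaphorins signal through plexins, with neuropilins as co-receptors for most secreted class 3 members. Ephrins are bound to the membrane and signal through Eph receptor tyrosine kinases, Slits signal through Robo receptors, and netrins attract axons through Dcc and neogenin or repel them through the Unc5 receptors.

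Gene counts per library ran from 39750468 to 47567384, so 3 counts, taken as the detection floor, equal 0.0660 to 0.0790 CPM (read counts scaled to a common library size; the floor covers counting error only). Cbln1 stood at 99.3 and 68.7 CPM in IP, against 11.9 and 8.55 CPM in input, above in both IP libraries. Of the 8 pan-neuronal markers 7 rose in IP (quasi-likelihood test of edgeR, p adjusted by Benjamini-Hochberg under 0.05). By the same test, 6 of the 8 glutamatergic markers rose and 0 fell, and 0 of the 9 GABAergic markers rose and 3 fell. Over all genes tested 23.4% rose and 22.4% fell, and over those averaging at least 5 CPM 34.3% and 20.5%. The summed GABAergic level overlapped between groups, at 647 and 862 CPM in IP, against 798 and 851 CPM in input. Defining markers of cortical excitatory neurons were present in every library, where the vesicular glutamate transporter Slc17a7 averaged 704 ± 49.6 CPM in the 2 IP libraries and 522 ± 48.8 CPM in the 2 input libraries (± SD). Of the 5 striatal markers 4 fell, and their summed level was 138 and 154 CPM in IP, against 218 and 249 CPM in input. Of the 5 fibroblast markers Dcn rose, and the collagen genes Col1a1 and Col1a2 fell. Other lists were mixed. The 6 astrocyte markers held 2 that rose and 2 that fell, and the 5 thalamic markers 3 that rose and 2 that fell. The 6 microglial markers held 1 that rose and 2 that fell. Markers of oligodendrocyte precursors held 1 that rose and 1 that fell of 5, and mural markers 0 that rose and 1 that fell of 5. The part of these cells in the results was not tested. With bulk IP and input libraries, which cells make the tagged protein and how much of their RNA is ribosome-bound cannot be told apart.

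Across the guidance genes, 19 of 67 rose in IP, 6 fell and 42 did not pass. These were 28.4% of the guidance genes for a rise and 8.96% for a fall, against a background of 23.4% and 22.4% of all genes tested. The median log2 fold change was 0.05, beside -0.04 over all genes tested. Among the 52 guidance genes averaging at least 5 CPM, 18 rose (34.6%) and 6 fell (11.5%), where 34.3% of all genes at that level rose and 20.5% fell. Of protein-coding genes at that level 35.5% rose and 18.9% fell, and of genes between 5 and 200 CPM 32.4% rose and 20.6% fell. The share that rose was thus close to that of genes of like abundance. IP was above input in every pair of libraries in 27 guidance genes and below them in 20, where all genes tested gave 35.3% and 37.8%. A rise of at least 2-fold passed for 4 guidance genes, Unc5c, Slit1, Slit3 and Epha3, and no fall that passed was so large. Over all genes tested, 3.67% rose and 10.7% fell by at least 2-fold, and over those of at least 5 CPM 4.37% and 3.62%. Scaled by library sizes alone, which moved the median of all genes by -0.26, 12 guidance genes rose and 20 fell. By DESeq2 19 rose and 5 fell. The calls for 12 of the 19 higher genes and 3 of the 6 lower genes held under each of the 10 alternative settings run, which include a stricter filter of 1 CPM in 2 libraries and leaving out each library.

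**Figure D1:**
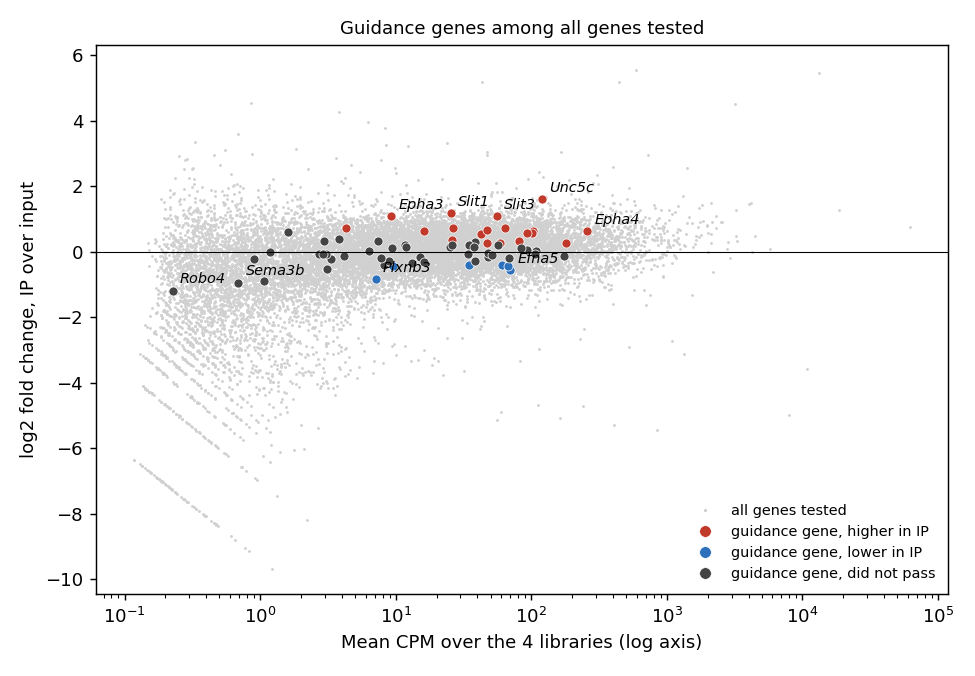
Log2 fold change of IP over input (vertical axis) against the mean CPM over the 4 libraries (horizontal log axis), with every gene tested in grey and the 67 guidance genes coloured by their call. Unc5c stands highest among the guidance genes at 1.60, and Robo4 lowest at -1.18 without passing the test.

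Just inside the count limit lay Robo4, a Robo of blood vessels, with 7 and 4 counts in IP, against 16 and 12 in input, which was taken through the input libraries alone. Just outside it lay Epha1 (0 and 17 counts in IP, 6 and 7 in input), Efna4 (7 and 1 in IP, 16 and 2 in input) and the antisense transcript Plxna4os1 (0 and 0 in IP, 21 and 3 in input). Epha2 and Sema3g, a vascular semaphorin, held 0 to 6 counts in each library. These 5 names were not tested.

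**Figure D2:**
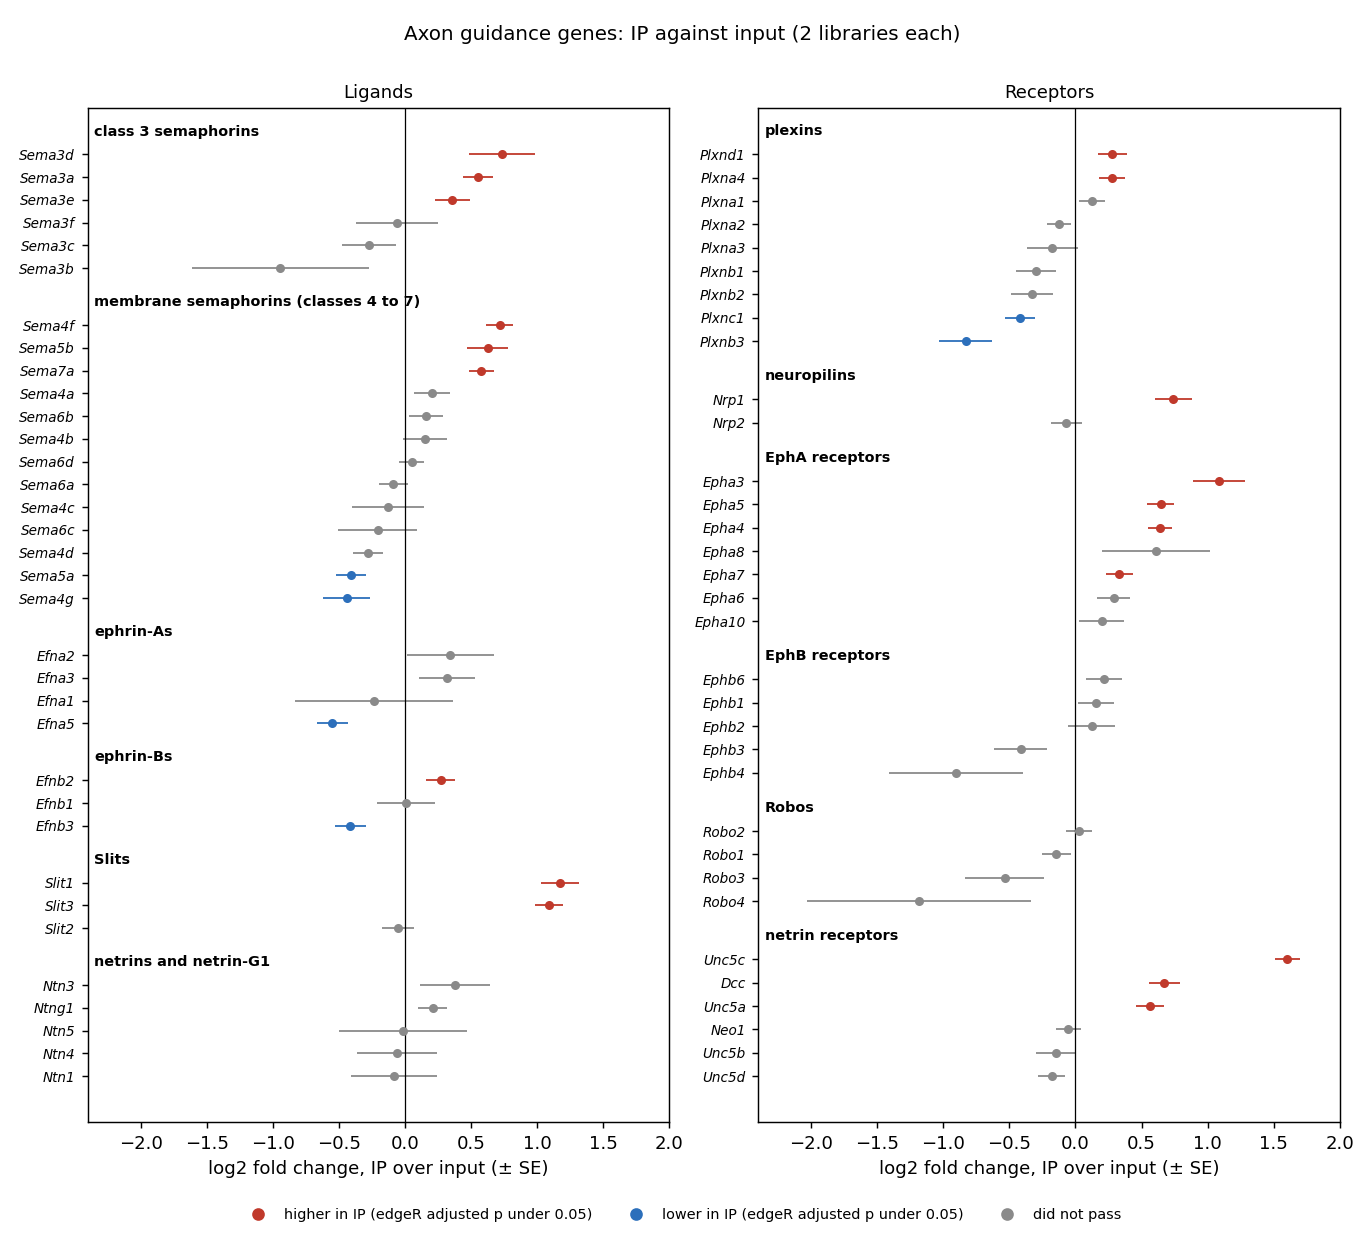
Log2 fold change of IP over input with its standard error (horizontal axis) for the 34 ligands and 33 receptors, grouped by family and coloured by the edgeR call at an adjusted p under 0.05. EphA receptors all lie right of zero, whereas Slits, netrin receptors, plexins and semaphorins are split.

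The largest rise of any guidance gene was that of a netrin receptor. Unc5c, a repulsive receptor, stood at 174 and 183 CPM in IP and at 59.1 and 58.7 CPM in input. The IP libraries were alike and far above the input libraries, which differed from each other by less than 1 CPM. Unc5c was 3.04-fold higher in IP (log2 fold change 1.60, SE 0.10, edgeR adjusted p = 3.21e-10). Over the alternative settings its log2 fold change ran from 1.34 to 1.66. Unc5c (ENSMUSG00000059921.15) is annotated at 141465216 to 141834924 of chromosome 3, plus strand, in GRCm38.

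Dcc, the attractive netrin receptor, and Unc5a rose less. Dcc stood at 63.1 and 53.5 CPM in IP, against 36.2 and 36.9 CPM in input, with no overlap between the groups. The rise in IP was 0.67 on the log2 scale (SE 0.12, edgeR adjusted p = 0.000113). Unc5a stood at 117 and 103 CPM in IP, against 70.3 and 78.6 CPM in input (log2 fold change 0.56, SE 0.10, adjusted p = 0.000216). The spread within each group was larger for Unc5a than for Unc5c, but the groups again did not overlap. Neogenin (Neo1), a relative of Dcc that also binds repulsive guidance molecules, did not pass, at 105.3 and 105.1 CPM in IP, against 113 and 105.0 CPM in input. Unc5b and Unc5d had log2 fold changes of -0.15 and -0.18 that did not pass (edgeR adjusted p = 0.452 and 0.160). IP was below input without overlap in each, as in 37.8% of all genes tested. On library sizes alone, Neo1, Unc5b and Unc5d passed as lower, while Unc5c, Dcc and Unc5a still rose.

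The make-up of the netrin receptor family differed between IP and input. Taken as shares of the family's summed CPM per kilobase of exon, Unc5c made up 14.4% and 16.1% in IP and 6.65% and 6.54% in input. Unc5d made up 11.1% and 11.4% in IP and 17.3% and 16.3% in input, and neogenin 19.1% and 20.2% in IP and 28.1% and 25.7% in input. Unc5a was the most abundant of the 6 per length in every library, at 41.6% to 44.3% in IP and 36.4% to 40.2% in input. In the order of levels per length over all 67 genes, Unc5c was 14th in IP and 29th in input. These shares have no test of their own. They and the order rest on exon lengths merged over all annotated exons, 19.1 kilobases for Unc5c and 4.17 kilobases for Unc5a. By CPM without lengths, Unc5c lay above Unc5a in both IP libraries and below it in both input libraries.

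**Figure D3:**
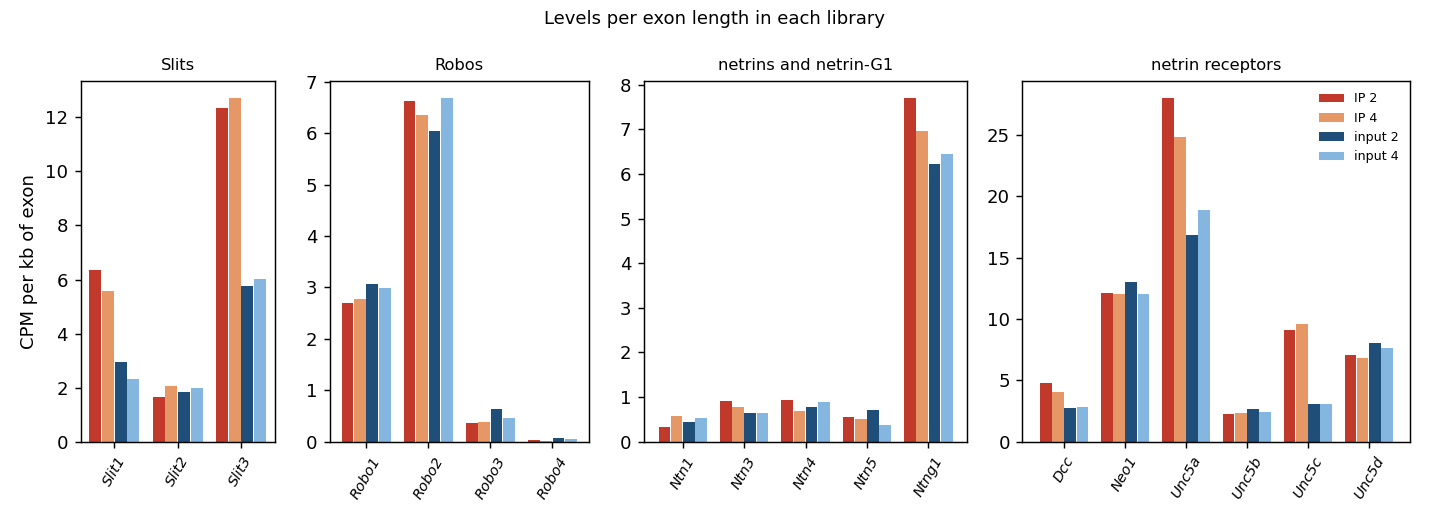
Level in CPM per kilobase of exon (vertical axes from zero, each with its own scale) of Slits, Robos, netrins with netrin-G1, and netrin receptors, with a bar for each of the IP and input libraries. Slit1, Slit3, Unc5c, Dcc and Unc5a are higher in both IP libraries, whereas Slit2, Robo2 and the secreted netrins show overlapping bars except for Ntn3.

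The netrins themselves were low and did not pass. Of the 5 ligand genes 0 rose and 0 fell by edgeR and by DESeq2, and 0 had an unadjusted p under 0.05. Netrin-G1 (Ntng1), a membrane-anchored relative that binds the adhesion protein Lrrc4c rather than the netrin receptors, made up 73.4% to 73.9% of the group's level per length in IP and 70.7% to 72.8% in input. Ntng1 stood at 63.5 and 57.4 CPM in IP, against 51.3 and 53.2 CPM in input. Its log2 fold change was 0.21 (SE 0.11, edgeR adjusted p = 0.121) and turned to -0.05 with library sizes alone. The secreted netrins Ntn1, Ntn3, Ntn4 and Ntn5 stood between 1.13 and 4.66 CPM in the IP libraries and between 0.832 and 3.32 CPM in the input libraries. Ntn1 varied most in IP, at 2.08 and 3.59 CPM, a spread that covered its input values of 2.75 and 3.26 CPM. For Ntn5, 23.4% of the exon length overlaps another gene, Sec1, so its level is uncertain.

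Of the 3 Slits, the repulsive ligands of Robo receptors, 2 rose and 1 did not pass, where 23.4% of all genes tested rose. Slit1 stood at 37.5 and 33.0 CPM in IP, against 17.5 and 13.7 CPM in input, 2.26-fold higher in IP (log2 fold change 1.17, SE 0.14, edgeR adjusted p = 2.57e-06). Slit3 stood at 74.9 and 77.1 CPM in IP, against 35.03 and 36.5 CPM in input, 2.13-fold higher (log2 fold change 1.09, SE 0.11, adjusted p = 1.65e-07). For both genes every IP library lay above every input library by more than the spread within the groups. Slit2 stood at 41.6 and 51.8 CPM in IP, against 46.4 and 50.4 CPM in input, so that its groups overlapped. Its log2 fold change of -0.05 (SE 0.12, adjusted p = 0.765) was 0.12 without IP 2 and 0.02 without input 4, neither of which passed. Slit2 passed as lower with library sizes alone.

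Per length, Slit3 was the most abundant Slit in every library. This order rests on merged exon lengths of 25.4 kilobases for Slit2 and 6.07 kilobases for Slit3. By CPM without lengths, Slit2 lay above Slit3 in both input libraries and below it in both IP libraries. Slit3 had the following shares per length. It made up 60.8% and 62.5% of the summed Slit level in IP and 54.7% and 58.3% in input, while Slit2 made up 8.06% and 10.03% in IP and 17.3% and 19.2% in input. Slit3 was 7th of the 67 genes per length in IP and 22nd in input. Slit1 (ENSMUSG00000025020.11) is annotated at 41600257 to 41743665 of chromosome 19, minus strand, and Slit3 (ENSMUSG00000056427.10) at 35121224 to 35708507 of chromosome 11, plus strand.

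None of the 4 Robo receptors passed by edgeR or DESeq2, and 0 had an unadjusted p under 0.05. Robo2 stood at 112 and 108 CPM in IP, against 103 and 114 CPM in input. The estimate for Robo2 (log2 fold change 0.03, SE 0.10, edgeR adjusted p = 0.838) had a negative sign with library sizes alone, with the stricter filter and without input 2. Robo1 stood at 44.7 and 45.8 CPM in IP, just below 50.7 and 49.4 CPM in input (log2 fold change -0.15, SE 0.11, adjusted p = 0.295). Robo3, which in mammals binds Nell2 rather than Slits, stood at 2.45 and 2.66 CPM in IP, against 4.29 and 3.12 CPM in input (log2 fold change -0.54, SE 0.30, adjusted p = 0.155). Robo4 stood at 0.184 and 0.0925 CPM in IP, against 0.352 and 0.277 CPM in input, close to the floor (log2 fold change -1.18, SE 0.85, adjusted p = 0.271). Robo1 and Robo3 passed as lower with library sizes alone. The order of Robo2 over Robo1 over Robo3 over Robo4 per length was the same in every library.

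Of the 19 semaphorins 6 rose and 2 fell, against 3 and 5 with library sizes alone. Among the 6 secreted class 3 members, 3 rose and 0 fell. Sema3a, a repellent of cortical axons, stood at 53.1 and 48.2 CPM in IP, against 35.8 and 33.1 CPM in input (log2 fold change 0.55, SE 0.12, edgeR adjusted p = 0.000678). Sema3d stood at 5.16 and 5.55 CPM in IP, against 2.99 and 3.44 CPM in input (log2 fold change 0.74, SE 0.25, adjusted p = 0.0230). Sema3e, the ligand of Plxnd1, stood at 30.9 and 27.4 CPM in IP, against 23.3 and 22.0 CPM in input (log2 fold change 0.36, SE 0.13, adjusted p = 0.0311). All 3 had both IP libraries above both input libraries, as had 35.3% of all genes tested, but the calls differed in firmness. Sema3a kept its call in every setting. Sema3e lost it without IP 2, without input 2, without input 4, with the stricter filter and with library sizes alone (adjusted p up to 0.557), and Sema3d without IP 4, without input 2 and with library sizes alone (up to 0.133).

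Sema3b, Sema3c and Sema3f did not pass, and their groups overlapped. Sema3b differed 3-fold between the input libraries themselves, with 12 and 27 counts in IP, against 20 and 60 counts in input. Sema3c stood at 6.50 and 9.51 CPM in IP, against 10.4 and 8.99 CPM in input, and passed as lower without IP 4 (edgeR adjusted p = 0.0445) and with library sizes alone (adjusted p = 0.0337).

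Of the 13 membrane-bound semaphorins 3 rose (23.1%) and 2 fell (15.4%), beside 23.4% and 22.4% of all genes tested. Sema4f stood at 79.8 and 78.7 CPM in IP, against 49.6 and 46.8 CPM in input (log2 fold change 0.72, SE 0.10, edgeR adjusted p = 1.65e-05). Sema7a, a lipid-anchored semaphorin that signals through Plxnc1 and integrins, stood at 121.2 and 120.7 CPM in IP, against 82.6 and 79.3 CPM in input (log2 fold change 0.58, SE 0.10, adjusted p = 7.27e-05). Per length it was the most abundant semaphorin in every library, with 34.9% and 34.8% of the summed semaphorin level in IP and 28.9% and 28.9% in input. Sema5b, a transmembrane member, stood at 19.8 and 19.5 CPM in IP, against 11.4 and 14.0 CPM in input (log2 fold change 0.63, SE 0.16, adjusted p = 0.00269), a call lost with library sizes alone (adjusted p = 0.0555).

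Sema5a, a ligand of Plxnb3, went the other way from Sema5b. It stood at 50.6 and 53.4 CPM in IP, against 74.9 and 62.9 CPM in input (log2 fold change -0.41, SE 0.11, edgeR adjusted p = 0.00615), and did not pass without input 2 (adjusted p = 0.142). Sema4g stood at 7.87 and 8.38 CPM in IP, against 10.9 and 11.1 CPM in input (log2 fold change -0.44, SE 0.18, adjusted p = 0.0496). The Sema4g call was lost in 7 of 10 alternative settings, among them DESeq2, no filter and the removal of any single library. The other 8 membrane-bound semaphorins did not pass, with log2 fold changes from -0.28 (Sema4d) to 0.20 (Sema4a). Sema6d lay close to its input level, at 94.0 and 94.9 CPM in IP, against 91.5 and 90.9 CPM in input.

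Among the 9 plexins, the signalling receptors of semaphorins, 2 rose, 2 fell and 5 did not pass (median -0.18). The shares that rose and fell were 22.2% each, beside 23.4% and 22.4% of all genes tested. Plxna4, which carries Sema3a signals together with neuropilin 1, was the most abundant per length. It stood at 194 and 204 CPM in IP, against 155 and 173 CPM in input (log2 fold change 0.28, SE 0.10, edgeR adjusted p = 0.0236). Plxnd1, the receptor of Sema3e, stood at 53.6 and 48.9 CPM in IP, against 42.0 and 42.5 CPM in input (log2 fold change 0.28, SE 0.11, adjusted p = 0.0477). Neither gene overlapped between groups, but the calls depended on the setting. The Plxna4 call was lost in 4 of 10 settings (without IP 4, without input 2, with the stricter filter and with library sizes alone, adjusted p up to 0.897). The Plxnd1 call was lost in 5 of 10 (without IP 2, without input 2, without input 4, with the stricter filter and with library sizes alone, adjusted p up to 0.898).

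Plxnb3 and Plxnc1 fell. Plxnb3, a plexin known from oligodendrocytes, stood at 5.18 and 5.07 CPM in IP, against 9.81 and 8.43 CPM in input, 1.78-fold lower in IP (log2 fold change -0.83, SE 0.20, edgeR adjusted p = 0.00247). Plxnc1, the receptor of Sema7a, stood at 53.9 and 61.7 CPM in IP, against 71.7 and 83.1 CPM in input (log2 fold change -0.42, SE 0.11, adjusted p = 0.00464). Thus Sema7a rose while its plexin fell, each without overlap between groups. Plxnc1 did not pass without IP 2 (adjusted p = 0.0542) or input 4 (adjusted p = 0.0834). Plxna1, Plxna2, Plxna3, Plxnb1 and Plxnb2 had log2 fold changes from -0.33 to 0.13, and none passed. The groups did not overlap in any of them, but of all genes tested 35.3% lay wholly above input and 37.8% wholly below. By library sizes alone 0 plexins rose and 5 fell.

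The 2 neuropilins, co-receptors of class 3 semaphorins and of vascular growth factors, held 1 that rose and 1 that did not pass. Nrp1, the co-receptor for Sema3a, stood at 36.9 and 29.6 CPM in IP, against 18.7 and 21.1 CPM in input (log2 fold change 0.74, SE 0.14, edgeR adjusted p = 0.000280). Nrp2, the co-receptor for Sema3f, stood at 32.6 and 34.4 CPM in IP, against 35.4 and 34.8 CPM in input (log2 fold change -0.07, SE 0.12, adjusted p = 0.666) and passed as lower with library sizes alone. Per length, Nrp1 made up 57.8% and 51.0% of the neuropilin level in IP and 39.0% and 42.3% in input. Nrp1 is also made by blood vessels. The 7 endothelial markers had log2 fold changes from -1.11 to 0.38, and their summed level was 7.95 and 8.24 CPM in IP, against 12.6 and 8.53 CPM in input, with none at 0 in any library. Their part in the Nrp1 result was not tested.

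**Figure D4:**
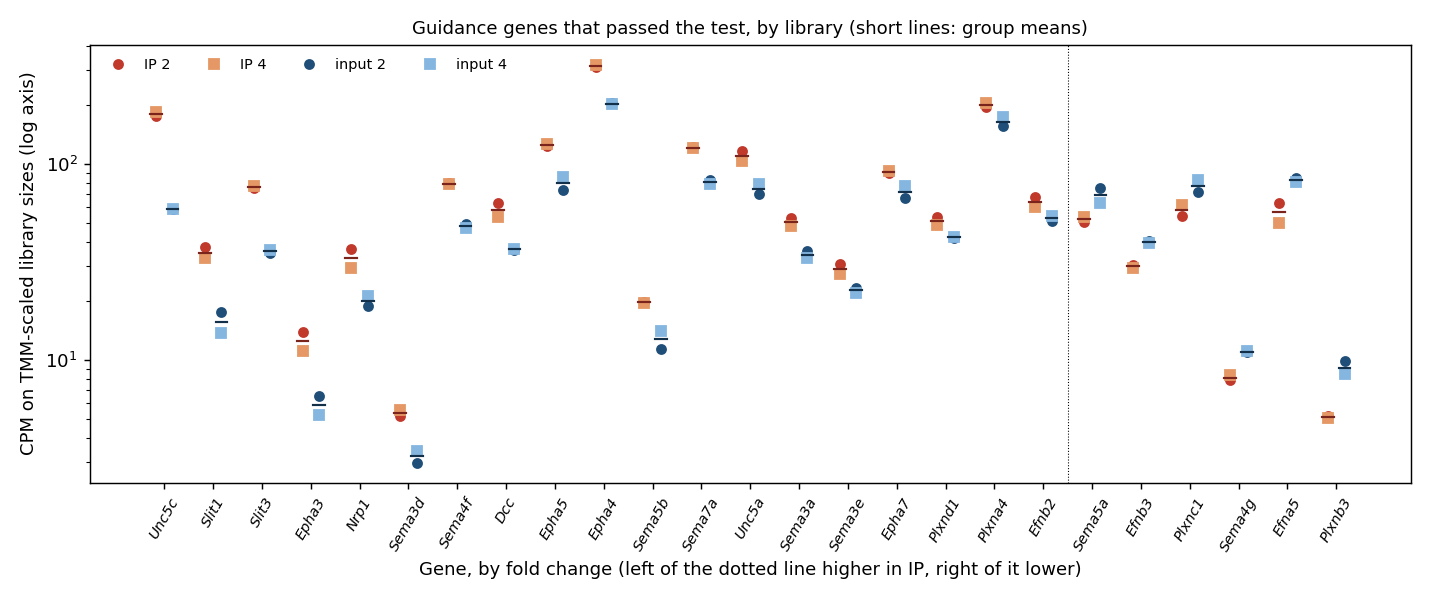
CPM in each library (log axis) of the 25 guidance genes that passed the test, ordered by fold change, with IP points left of input points and short lines at the group means. The IP points lie above the input points in the 19 genes left of the dotted line and below them in the 6 genes right of it.

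EphA receptors, which bind mainly the lipid-anchored ephrin-As, lay above input in all 7 members, and 4 of them rose. Over all genes tested 35.3% had both IP libraries above both input libraries. Of these genes 23.4% rose, and of those averaging at least 5 CPM 34.3%. Epha4, which also binds ephrin-Bs, was the most abundant guidance gene per length in both groups. It stood at 312 and 320.4 CPM in IP, against 203 and 202 CPM in input (log2 fold change 0.64, SE 0.09, edgeR adjusted p = 1.001e-05). Epha5 stood at 123.2 and 126.5 CPM in IP, against 73.8 and 85.9 CPM in input (log2 fold change 0.64, SE 0.10, adjusted p = 4.48e-05). Epha3 stood at 13.9 and 11.2 CPM in IP, against 6.56 and 5.24 CPM in input, 2.12-fold higher (log2 fold change 1.09, SE 0.20, adjusted p = 0.000173). Epha3 (ENSMUSG00000052504.7) is annotated at 63543534 to 63864175 of chromosome 16, minus strand.

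The remaining EphA receptors differed less. Epha7 stood at 89.7 and 91.3 CPM in IP, against 66.9 and 76.8 CPM in input (log2 fold change 0.33, SE 0.10, edgeR adjusted p = 0.0131), a call lost without input 2 (adjusted p = 0.164) and with library sizes alone (adjusted p = 0.576). Epha6, Epha8 and the kinase-dead Epha10 had log2 fold changes of 0.29, 0.61 and 0.20 that did not pass, Epha8 at 1.202 to 2.105 CPM over all libraries. In each of these 3, too, IP was above input without overlap, and Epha6 passed with no filter, with a replicate block and without IP 4. With library sizes alone 3 EphA receptors rose and 6 of the 7 kept a positive sign.

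None of the 5 EphB receptors, which bind the transmembrane ephrin-Bs, passed by edgeR or DESeq2, and 0 had an unadjusted p under 0.05. Ephb6, a kinase-dead member, was the most abundant of them per length, at 42.4 and 32.5 CPM in IP, against 32.8 and 31.7 CPM in input. IP 2 alone stood clear of the other libraries there, and Ephb6 passed as higher without IP 4 (edgeR adjusted p = 0.0226). Ephb1 and Ephb2 had log2 fold changes of 0.16 and 0.12. Ephb3 stood at 7.87 and 6.25 CPM in IP, against 8.65 and 10.2 CPM in input (log2 fold change -0.42, SE 0.20, edgeR adjusted p = 0.0962), and passed as lower without IP 2 and with library sizes alone. Ephb4, a receptor of veins, held 22 and 39 counts in IP, against 74 and 50 counts in input (log2 fold change -0.90, SE 0.51, adjusted p = 0.158). The difference between the EphA and EphB receptors was not tested.

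Of the 7 ephrins 1 rose (14.3%) and 2 fell (28.6%), beside 23.4% and 22.4% of all genes tested. Efna5, a ligand of the EphA receptors and the most abundant ephrin per length, stood at 63.3 and 49.6 CPM in IP, against 84.5 and 80.6 CPM in input (log2 fold change -0.55, SE 0.12, edgeR adjusted p = 0.000773). Its fall stood beside the rise of 4 of its receptors. Efnb3, a transmembrane ephrin, stood at 30.4 and 29.5 CPM in IP, against 40.2 and 39.6 CPM in input (log2 fold change -0.41, SE 0.12, adjusted p = 0.00746). Both falls kept their call in every setting run. Efnb2, the ephrin-B also known from arteries, stood at 67.6 and 59.9 CPM in IP, against 51.2 and 54.4 CPM in input (log2 fold change 0.27, SE 0.11, adjusted p = 0.0490), and the call was lost in 5 of 10 settings (without IP 2, without input 2, without input 4, with the stricter filter and with library sizes alone, adjusted p up to 0.935).

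Efna1, Efna2, Efna3 and Efnb1 did not pass, and their groups overlapped. Efna1 held 48 and 17 counts in IP, against 51 and 35 counts in input, so the spread within IP exceeded the difference between groups. Efna3, with 14.1% of its exon length overlapping another gene, stood at 9.66 and 6.76 CPM in IP, against 6.36 and 6.79 CPM in input, and passed as higher without IP 4 (edgeR adjusted p = 0.0448).

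In the order of levels per length, Epha4 and Sema7a led both groups, at 39.3 and 36.7 CPM per kilobase in IP and 25.2 and 24.5 in input. Their libraries lay apart in IP (38.8 and 39.8 for Epha4, 36.7 and 36.6 for Sema7a), whereas in input the gap was smaller (25.2 and 25.1 for Epha4, 25.0 and 24.0 for Sema7a). Unc5a followed in IP at 26.4 CPM per kilobase, then Sema4f at 14.97 and Plxna4 at 14.1. Both IP libraries of Sema4f, at 14.9 and 15.1, lay above both of Plxna4, at 13.7 and 14.4, by less than Plxna4 differed between its libraries. In input Efna5 followed at 20.5 CPM per kilobase and then Unc5a at 17.9. Fold change and exon length were weakly related over the 67 genes (Spearman correlation 0.10, a description across genes that share the same 4 libraries), and the same with mean CPM was 0.31.

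Some guidance genes are also known from cells other than neurons. Of those known from blood vessels, Robo4 and Ephb4 did not pass. Efnb2 and Plxnd1 rose, but each call was lost in 5 of 10 settings. The 7 endothelial markers summed to 7.95 and 8.24 CPM in IP, against 12.6 and 8.53 CPM in input. Such sums cannot show how much of Efnb2 or Plxnd1 came from vessel cells. The part of vessel cells in these results was not tested. Among genes of the oligodendrocyte lineage Plxnb3 fell. Sema4d, which signals through Plxnb1, stood at 35.6 and 34.3 CPM in IP, against 40.6 and 44.2 CPM in input (log2 fold change -0.28, SE 0.12, edgeR adjusted p = 0.0577), and Sema6a at 48.5 and 51.2 CPM in IP, against 51.4 and 54.5 CPM in input (log2 fold change -0.09, SE 0.11, adjusted p = 0.537). Sema4d passed as lower with the stricter filter, with a replicate block and with library sizes alone, and Sema6a with library sizes alone. The 7 oligodendrocyte markers held 2 that rose and 4 that fell, with a summed level of 1254 and 1289 CPM in IP, against 1627 and 1530 CPM in input and none at 0 in any library. Their part in the Plxnb3 result was not tested.

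The wider pathway was described with 82 further genes, of which 33 rose, 15 fell and 34 did not pass (median 0.18). This was 40.2% and 18.3%, beside 23.4% and 22.4% of all genes tested. Of the 74 with a mean of 5 CPM or more, 32 rose (43.2%) and 15 fell (20.3%), beside 34.3% and 20.5% of all genes at that level. With library sizes alone 22 rose and 28 fell.

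Among 13 other ligands and repulsive cues 5 rose (38.5%) and 3 fell (23.1%). Among 17 other receptors and co-receptors 7 rose (41.2%) and 4 fell (23.5%). Of all genes averaging at least 5 CPM 34.3% rose and 20.5% fell. Omg, an inhibitor of neurite growth that binds the Nogo receptor, stood at 326 and 334 CPM in IP, against 162 and 151 CPM in input, 2.11-fold higher (log2 fold change 1.08, SE 0.09, edgeR adjusted p = 2.67e-08). Rtn4r, the Nogo receptor itself, stood at 81.3 and 74.4 CPM in IP, against 41.8 and 39.1 CPM in input, 1.92-fold higher (log2 fold change 0.94, SE 0.11, adjusted p = 1.05e-06). Its relative Rtn4rl2, its co-receptor Lingo1 and its myelin ligand Mag rose by 0.70, 0.36 and 0.74 on the log2 scale. Another relative, Rtn4rl1, did not pass (log2 fold change -0.07, SE 0.10, edgeR adjusted p = 0.606). It stood at 86.5 and 84.9 CPM in IP, against 83.4 and 96.6 CPM in input, so that its groups overlapped. Rtn4, which encodes Nogo and shares 18.4% of its exon length with another gene, fell by 0.26 (edgeR adjusted p = 0.0263). Ntng2, the sister of netrin-G1, rose by 0.94 (SE 0.14), at 70.1 and 49.2 CPM in IP, against 31.6 and 30.7 CPM in input. For Ntng2, 13.98% of the exon length overlaps another gene, so its level is uncertain to that extent. The netrin-G receptors Lrrc4c and Lrrc4 fell by 0.63 and 0.43.

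Nell2, the ligand of Robo3, rose by 0.82 (SE 0.09), at 465 and 416 CPM in IP, against 247 and 250.4 CPM in input. Cdon, a co-receptor for hedgehog signals, was 1.999-fold lower, at 6.42 and 8.88 CPM in IP, against 14.4 and 16.3 CPM in input (edgeR adjusted p = 0.000227). Ryk, a Wnt receptor of axons, stood at 8.24 and 9.32 CPM in IP, against 17.07 and 15.04 CPM in input, 1.83-fold lower (adjusted p = 0.000321). Flrt2, a repellent that binds Unc5 receptors, was 1.58-fold lower in IP (edgeR adjusted p = 2.39e-05). It stood at 87.2 and 78.2 CPM in IP, against 133 and 129 CPM in input. Its relative Flrt3 went the other way and rose by 0.42 (SE 0.11, edgeR adjusted p = 0.00601). Flrt1 did not pass (log2 fold change -0.18, SE 0.11, edgeR adjusted p = 0.197). Rgma, the ligand of neogenin, fell by 0.57 (SE 0.13).

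Of the 8 collapsin response mediators and MICALs, which link semaphorin receptors to microtubules and actin, 7 rose and 0 fell by edgeR, and 6 rose by DESeq2. By edgeR 23.4% of all genes tested rose and 22.4% fell. Mical2, an enzyme that oxidises actin, rose by 0.92 (SE 0.09), and Crmp1 and Dpysl4, cytoskeletal effectors of semaphorin signals, by 0.72 (SE 0.09) and 0.86 (SE 0.14). Mical3 did not pass (log2 fold change -0.29, SE 0.12, edgeR adjusted p = 0.0634). With library sizes alone 4 of the 8 rose and 1 fell.

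Of 24 kinases, adaptors and actin proteins 3 rose (12.5%) and 7 fell (29.2%), beside 23.4% and 22.4% of all genes tested. Cfl1, the actin severing protein cofilin, with 16.5% of its exon length shared with another gene, and the kinase Cdk5 rose by 0.64 and 0.62. In contrast, Ablim1, an actin binding protein, stood at 61.9 and 66.6 CPM in IP, against 118 and 124 CPM in input, 1.89-fold lower (edgeR adjusted p = 5.64e-07). Enah, an actin regulator, and the kinases Rock1 and Pak3 fell by 0.44, 0.54 and 0.34.

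**Figure D5:**
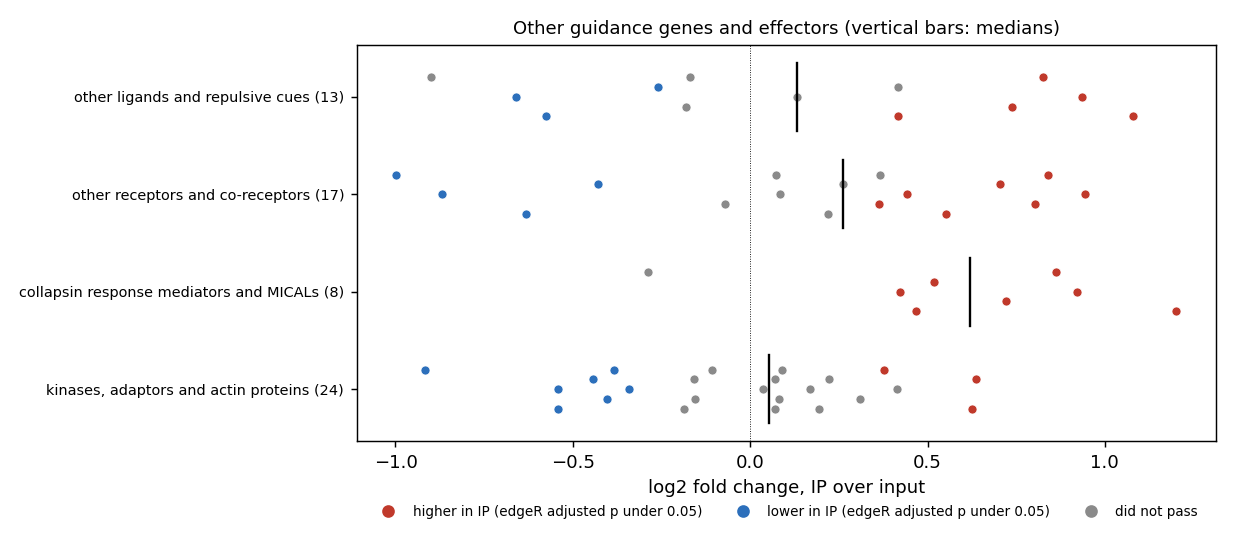
Log2 fold change of IP over input (horizontal axis) for 4 groups of further guidance genes, each point a gene coloured by its edgeR call and each vertical bar a group median. The collapsin response mediators and MICALs have the highest of these medians, and 7 of their 8 points lie among the genes that rose.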

How the data were processed

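The deposited files hold whole-number read counts per gene name, not normalised, 1 file per library. They were made with STAR 2.0.0e and HTSeq on mm10, as the submitters' processing notes list; annotation, strandedness and library kit were not given in the sources used here. Summary lines without a gene name entered neither library sizes nor tests. They held 7.31% and 7.54% of records outside features in IP and 14.9% and 13.5% in input, 1.54% and 1.54% ambiguous in IP and 5.07% and 5.09% in input, and 37.0% and 38.0% without a unique alignment in IP and 32.1% and 30.7% in input. Reads of close copies are therefore undercounted.

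The test was that of edgeR 4.0.16 under R 4.3.3 (TMM, filterByExpr with a minimum count of 10 and total of 15, quasi-likelihood test of IP against input, no block, two-sided), with Benjamini-Hochberg adjustment over 16600 genes and a threshold of 0.05. CPM used TMM-scaled library sizes. Standard errors were derived from the F statistic. Libraries of a group differed by more than counting error (chi-square per degree of freedom 21.2 in IP and 14.5 in input). This cannot show whether they came from separate animals. The method was also run on simulated counts with 200 changed genes, as many up as down. Such a balanced setting cannot show how the choice of scaling affects the calls in these data. Exon lengths and overlaps came from GENCODE vM21 (GRCm38). Each length is that of all annotated exons of a gene merged, so levels per length depend on which transcripts are annotated. All 67 genes matched by symbol, and 16 overlap exons of another gene.

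For each family the 3 called genes with the largest change in each direction and the most abundant gene were named, with every member of families of 4 or fewer, and up to 4 pathway genes averaging at least 5 CPM in each direction. One group of the pathway list and its genes are counted in the total only and not reported here. Further genes were added after their values were seen. The guidance genes and lists were chosen with earlier results of these data known. Alternatives were DESeq2 1.42.0, edgeR with its size factors, scaling by library sizes alone, no filter, a stricter filter of 1 CPM in 2 libraries, a replicate block and leaving out each library.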

Additional observations from a re-analysis of the deposited data

How the results depend on the processing

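The scaling mattered most. With library sizes alone, 12 guidance genes rose and 20 fell, their median log2 fold change was -0.21, and 28 pathway genes fell. With the other alternatives that keep all 4 libraries, counts of guidance genes that rose ran from 15 to 20 and of those that fell from 5 to 7, against 19 and 6. Leaving out each library gave 13 to 20 guidance genes that rose and 4 to 6 that fell, a median of 0.0561 to 0.109, and 30 to 34 pathway genes that rose and 10 to 15 that fell. A lone library is then assumed to vary like the other group. Of the 42 guidance genes that did not pass, 23 turned sign in at least 1 setting, and 0 of the 25 that passed did. Among the genes named by rule these were Robo2 (-0.23 with library sizes alone, -0.0231 with the stricter filter and -0.0381 to 0.112 as each library was left out, negative without input 2), Ntng1 (-0.0485 with library sizes alone) and Slit2 (0.12 without IP 2, 0.02 without input 4). The labels do not say that a number marks a shared animal, and differences between numbers correlated at 0.09 across genes in IP and input. With a replicate block 20 guidance genes rose and 7 fell (median 0.05), with Epha6 and Sema4d gained, as did 38 and 17 pathway genes. Robo4, Sema3b, Ephb4, Efna1, Ntn5 and Epha8 held few counts, and how far depth or replicate spread kept them from passing was not tested.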
